A study of Caenorhabditis elegans with 2 samples.

Results

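UNC-39, a homeodomain protein related to vertebrate SIX4 and SIX5, was mapped by ChIP-seq in whole Caenorhabditis elegans of the L4 larval stage, and its regions are described here at 8 genes of Go and Gq signalling. The genes are goa-1, egl-30, gpb-2, eat-16, egl-10, ric-8, egl-8 and dgk-1, out of 19973 protein-coding genes on the 6 nuclear chromosomes. They were selected on eat-16, which had a peak in the optimal list (the list that the authors thresholded on the repeatability of ranks between replicates), and the other 7 were added as its pathway partners with results of these data known. A region was taken for a gene where its summit lay in the gene body or within 2000 bases of an annotated transcript 5′ end, a stretch called the window of the gene below. The 8 windows covered 82.1 kb and held 32 of the 30000 regions of the pooled list, 36 of 30000 of replicate 1, 33 of 30000 of replicate 2 and 1 of the 63 optimal peaks.

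Both samples came from strain OP186, in which the unc-119(ed3) III mutant background carries the transgene wgIs186 and so makes UNC-39 with a C-terminal GFP-FLAG tag. Males and hermaphrodites were pooled, the age in hours is unknown, and the labels name UNC-39 as the target without giving the epitope. The 2 biological replicates form a single group, with no input, untagged strain or other condition among the lists, so nothing was compared between conditions and no test was made. Whole larvae mix all tissues, and a region that UNC-39 occupied in few cells cannot be told apart from one occupied weakly in many. Ranks run from 1, the highest signal value of a list as the authors' peak caller gave it, to 30000. Signal values ran from 5.58 to 56.1 in the pooled list, from 3.80 to 34.6 in replicate 1 and from 2.23 to 26.0 in replicate 2, and were read within a list only. The replicate and pooled lists are relaxed, with background regions left in on purpose, and read depth is unknown, so a weak region may be background.

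The 8 proteins form a pair of opposed pathways that set how much neurotransmitter worm motor neurons release. Gq (EGL-30) activates phospholipase C beta (EGL-8), which makes diacylglycerol, a lipid that promotes release, while Go (GOA-1) holds release back and the diacylglycerol kinase DGK-1 removes the lipid. The RGS proteins, which speed GTP hydrolysis by G alpha subunits, are paired with them: EAT-16 acts on EGL-30 and EGL-10 on GOA-1, both in complex with the G beta 5-like subunit GPB-2. RIC-8 is an exchange factor and chaperone of G alpha subunits.

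Each of the 8 genes had at least 1 pooled region, as did 77.6% of all protein-coding genes, so that presence in the relaxed list did not set them apart. Each also had a region in replicate 1 (77.6% of all genes) and in replicate 2 (77.1%). Their windows are long, from 5.57 to 24.9 kb with a median of 8.79 kb against 4.18 kb for all genes, and among the 5216 protein-coding genes with windows in that range 90.8% had a pooled region. The 8 windows held 0.390 pooled regions per kb, against 0.315 in windows of that range, 0.307 in all gene windows and 0.299 over the genome. The median signal value was 7.83 for the 32 regions and 7.61 for the whole list. Of the 32, 19 ranked past 10000, as does most of any list of 30000 by construction. By median value the regions at these genes were thus close in strength to the whole list. Of the 32, 10 ranked up to 5000, as do 5000 of any 30000, the eat-16 peak that chose the set among them. The description below turns on the strongest regions.

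A pooled region of rank 1 to 1000 was present at 3 of the 8 genes, eat-16 (rank 11), goa-1 (rank 619) and egl-30 (rank 711). Of all protein-coding genes 5.38% had one, and of those with windows as long 8.78%. Without eat-16, whose rank chose the set, it was 2 of 7. The genes differed by replicate: ranks 1 to 1000 were reached in replicate 1 by eat-16 and goa-1, and in replicate 2 by eat-16, egl-30 and dgk-1. The share of all protein-coding genes that reached these ranks in a single replicate was not computed. In order of their strongest pooled region, dgk-1 (rank 1347), gpb-2 (2866), egl-8 (2941), egl-10 (10665) and ric-8 (15564) followed. The neighbours goa-1 and egl-30, with signal values of 15.6 and 15.3, and gpb-2 and egl-8, with 11.8 and 11.7, stood close together, and the lists give no error that would separate them. A region at least as strong as that of goa-1 was held by 3.47% of all protein-coding genes, as that of egl-30 by 3.91%, as that of dgk-1 by 7.02%, as that of gpb-2 by 2793 of the 19973, as that of egl-8 by 14.4%, as that of egl-10 by 41.9% and as that of ric-8 by 54.5%.

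**Figure D1:**
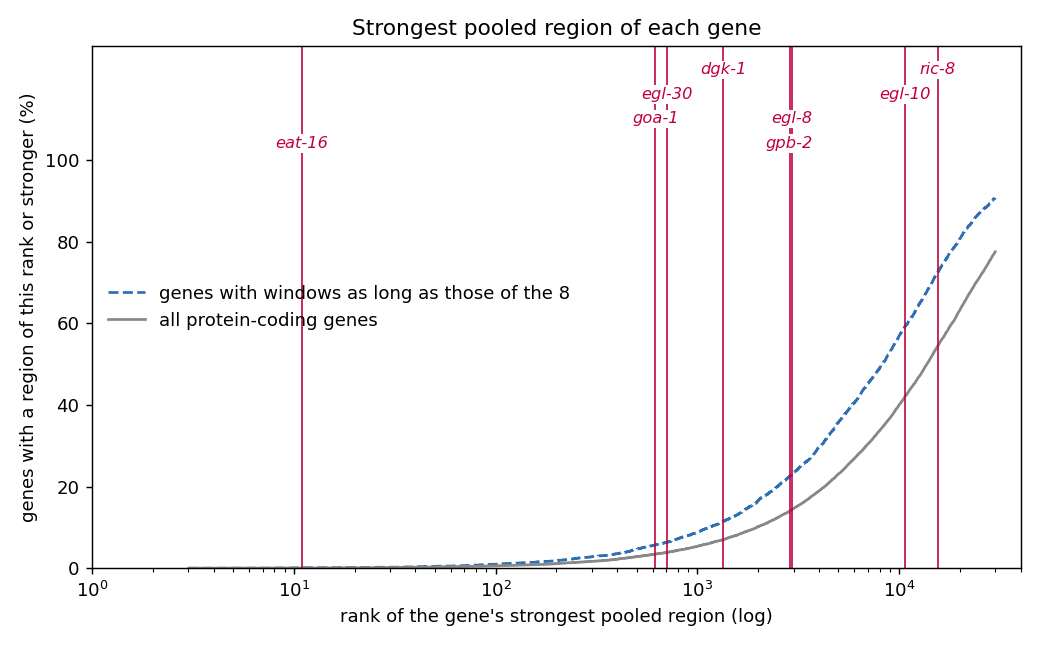
Share of protein-coding genes (y axis, %) whose strongest pooled region has at most the rank on the x axis (log scale), for genes with windows of 5.57 to 24.9 kb (dashed) and all genes (solid); vertical lines mark the 8 genes. The line of eat-16 stands alone at rank 11, goa-1 and egl-30 lie short of rank 1000, and egl-10 and ric-8 lie at 10665 and 15564.

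Both G alpha genes carried their strongest region on a transcript 5′ end, and at each the replicates ranked it far apart. At goa-1 (chromosome I, 7522116 to 7526716, plus strand, WBGene00001648), the region at 7521929 to 7522328 had its summit in the 5′ UTR, 13 bases past the only annotated start. Its signal value was 15.6 in the pool and 13.99 in replicate 1, where it ranked 180 with the summit on the same base, and no region of replicate 2 overlapped it. A further goa-1 region in an intron, 1204 bases past the start, had 13.9 in the pool (rank 1154), 10.2 in replicate 1 (rank 1182) and 2.38 in replicate 2 (rank 27722). The strength at goa-1 was thus that of replicate 1. The last pooled region of the gene, in an intron 2135 bases past the start, ranked 20598, and the strongest region of replicate 2 at goa-1 lay elsewhere, in the 3′ UTR, at rank 9447.

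For egl-30 (chromosome I, 1835661 to 1841965, plus strand, WBGene00001196) the replicates stood the other way round. The region at 1836451 to 1836850 had its summit exactly on the middle one of 3 annotated starts, 990 bases into the gene. Its signal value was 15.3 in the pool, 9.43 in replicate 1 (rank 1865) and 12.9 in replicate 2 (rank 48). The replicate summits were not at one place: that of replicate 1 lay 210 bases to the 5′ side of the pooled summit and that of replicate 2 lay 142 bases to its 3′ side. A second region, in an intron 338 bases past the last start, had 12.9 in the pool (rank 1786), 5.50 in replicate 1 (rank 14257) and 6.42 in replicate 2 (rank 2015). Its summit lay closer, at 306 bases, to the start of the non-coding gene M01D7.10. The other 3 pooled regions of egl-30 ranked between 26341 and 27617, and 2 of them lay upstream of the gene, nearest among other genes to the starts of rpl-27, a ribosomal protein gene, and of C53H9.4. The one 187 bases upstream ranked 26598 in the pool and 29799 in replicate 2, but 2491 in replicate 1. The main region lay closest to an egl-30 start, but it was also the best pooled region of C53H9.4, whose start was 871 bases off, and of rpl-27, at 1768 bases, under the same window rule.

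gpb-2, which encodes the G beta 5-like partner of both RGS proteins (chromosome I, 7318290 to 7321085, minus strand, WBGene00001680), had 2 pooled regions. The stronger, at 7318770 to 7319169 in an intron 113 bases upstream of an internal start, had a signal value of 11.8 in the pool (rank 2866), 3.83 in replicate 1 (rank 29653) and 4.88 in replicate 2 (rank 5842). It ranked higher in the pool than in either replicate. Under the same rule it was also a region of F52A8.1, whose start was 1324 bases off. The other, 870 bases upstream of the gene, ranked 18961 and had no overlap in a replicate.

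The optimal peak of eat-16 (chromosome I, 9722716 to 9726284, plus strand, WBGene00001145) was strong in both replicates, and it chose the set, so its values are a description. It spanned 9722077 to 9722476, with the summit 439 bases upstream of the nearest start. The signal value was 37.2 in the pool, between 38.0 at rank 10 and 36.6 at rank 12, 15.7 in replicate 1 (rank 96) and 21.8 in replicate 2 (rank 3). The summits of the pool and replicate 2 were on the same base and that of replicate 1 was 28 bases away. Its −log10 q was 1.94, the highest of the pooled list and shared by 44 regions, while the next highest among the 32 regions was 0.306, at goa-1. In the optimal list of the older build ce10, a single peak of that chromosome came within 0.01 of its signal value, again at rank 11, of 53 peaks. Elsewhere in the gene there was little: a second pooled region in a coding exon ranked 26143, with an overlap in replicate 1 at rank 8486 and none in replicate 2. Replicate 2 had no further region in the window, and replicate 1 had 4 more besides the peak and that one, none above rank 19271.

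The peak is not that of eat-16 alone. Its summit lay inside an intron of ocrl-1, the worm gene of the OCRL phosphoinositide 5-phosphatase, which runs the other way on the minus strand and whose nearest start was 1365 bases off. It also lay in exons of the short non-coding genes C16C2.7 and C16C2.8, on opposite strands, 147 and 181 bases past their starts. Because the window rule counts a region for every gene it reaches, ocrl-1 had the same best region as eat-16. Over the 5751 other protein-coding genes whose best pooled region overlapped a region in each replicate, likeness to eat-16 was measured as the distance between log10 ranks in the 3 lists. After ocrl-1 (distance 0) came Y111B2A.12, with ranks of 8, 30 and 6 in the pool, replicate 1 and replicate 2 (distance 0.604), and the collagen gene col-94, with 16, 38 and 10 (0.680), which shares its region with dhc-4. These are likenesses over 2 samples and their pool, all in optimal peaks.

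egl-10, the RGS gene of the Go side (chromosome V, 12453290 to 12463008, minus strand, WBGene00001179), had no strong region in its window. Its 4 pooled regions ranked 10665, 12277, 16105 and 28164. The first, at 12461707 to 12462106 in an intron, had a signal value of 8.52 in the pool and 5.59 in replicate 1 (rank 13666), and no region of replicate 2 overlapped it. The region at the start, 39 bases into the 5′ UTR, was stronger in replicate 1 (8.02, rank 3970) than its pooled rank of 16105, and was not overlapped in replicate 2. A strong region lay past the limit of 2000 bases. It spanned 12465501 to 12465900, 2693 bases upstream of egl-10, which is its nearest protein-coding start, with that of F28C1.3 little farther, at 2962 bases. The region had a signal value of 18.1 in the pool, with ranks of 260 in the pool, 302 in replicate 1 and 94 in replicate 2. It was picked out after its values were seen, and by the rule it is not a region of egl-10. The gene of another G alpha regulator, ric-8 (chromosome IV, 2642973 to 2650111, plus strand, WBGene00004367), was a like case. The region 2016 bases upstream, just outside, ranked 815 in the pool, 5555 in replicate 1 and 2254 in replicate 2, but lay 67 bases from the start of mdf-2, a spindle checkpoint gene. The region just inside the limit was that of dgk-1, at 1764 bases and rank 1347. Within its window ric-8 had 1 pooled region, at 2645453 to 2645852 in a coding exon, with a signal value of 7.51 in the pool (rank 15564) and 4.66 in replicate 2 (rank 6783), and without overlap in replicate 1.

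The 201 bases centred on the summit are printed for the strongest window regions of dgk-1, egl-10, egl-8 and ric-8, so that each can be read beside its ranks, and for the region past the limit upstream of egl-10, which was chosen after its values were seen. Those of goa-1, egl-30, gpb-2 and eat-16 are described by their values only. They are from the RefSeq assembly WBcel235 (ce11), each on the strand of its gene, 5′ to 3′. Capitals mark any match, on either strand, to TGATAC or TGACAC (core words of the SIX4 and SIX5 family) or to one of 3 further words, namely GAGAGA (a GA repeat), CGTCTC and, as a CA repeat, ACACAC. Words that overlap were each counted: the SIX4-type word ending in CAC can share 4 bases with the CA repeat word, and CGTCTC can share 4 with the complement of the GA repeat word.
dgk-1, upstream, rank 1347, chrX:993120-993320, minus strand: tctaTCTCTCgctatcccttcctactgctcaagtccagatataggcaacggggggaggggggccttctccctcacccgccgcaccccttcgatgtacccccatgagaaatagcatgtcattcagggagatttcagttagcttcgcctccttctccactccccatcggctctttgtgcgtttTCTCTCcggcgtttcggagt
egl-10, upstream and past the limit, rank 260, chrV:12465601-12465801, minus strand: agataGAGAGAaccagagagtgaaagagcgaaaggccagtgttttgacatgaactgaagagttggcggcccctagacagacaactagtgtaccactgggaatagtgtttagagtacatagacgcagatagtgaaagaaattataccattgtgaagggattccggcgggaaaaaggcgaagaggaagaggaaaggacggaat
egl-10, intron, rank 10665, chrV:12461807-12462007, minus strand: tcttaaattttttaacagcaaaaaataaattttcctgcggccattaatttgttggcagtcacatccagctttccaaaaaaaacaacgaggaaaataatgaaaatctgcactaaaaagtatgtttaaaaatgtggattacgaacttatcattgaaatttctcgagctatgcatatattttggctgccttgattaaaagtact
egl-8, coding exon, rank 2941, chrV:24808-25008, plus strand: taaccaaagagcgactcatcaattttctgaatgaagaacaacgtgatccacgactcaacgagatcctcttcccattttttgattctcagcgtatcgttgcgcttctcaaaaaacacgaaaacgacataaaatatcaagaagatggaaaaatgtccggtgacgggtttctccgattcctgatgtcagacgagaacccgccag
ric-8, coding exon, rank 15564, chrIV:2645553-2645753, plus strand: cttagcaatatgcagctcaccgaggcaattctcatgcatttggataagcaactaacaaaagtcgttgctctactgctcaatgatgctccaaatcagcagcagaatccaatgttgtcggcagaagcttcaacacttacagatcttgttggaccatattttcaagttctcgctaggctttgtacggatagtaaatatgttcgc
The capitals in these windows are all GAGAGA or its reverse complement, a word that 13.1% of all pooled regions hold, and 5 windows are too few to set against that share. G+C content was 55.7%, 45.8%, 30.3%, 43.3% and 42.3%, in the order printed.

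egl-8, the phospholipase C beta gene, is by far the longest of the set (chromosome V, 20818 to 43704, plus strand, WBGene00001177), and its 10 pooled regions were spread over the body, the closest to a start 1200 bases past it. The strongest was that printed above, at 24708 to 25107 in a coding exon 3901 bases past the nearest start, with a signal value of 11.7 in the pool and 9.07 in replicate 1 (rank 2274), and it was not overlapped in replicate 2. A second coding exon region, 9206 bases past a start, had 10.6 in the pool (rank 4649) and 8.52 in replicate 1 (rank 3056), again with none in replicate 2. The strongest region of replicate 2 at egl-8 was another, in an intron, with 6.54 (rank 1840) and a pooled rank of 9491, and replicate 1 had none there. Only 1 of the 10 regions, at pooled rank 20429, was overlapped in both replicates.

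dgk-1, the diacylglycerol kinase gene (chromosome X, 983903 to 991456, minus strand, WBGene00000958), had 5 pooled regions. The strongest was the G+C-rich upstream one printed above, at 993020 to 993419, with the summit 1764 bases upstream of the nearest start and 1846 bases upstream of that of C09E10.3, whose best pooled region it was as well. Its signal value was 13.6 in the pool (rank 1347), 6.46 in replicate 1 (rank 8930) and 8.07 in replicate 2 (rank 646), so that replicate 2 ranked it higher. The summit of replicate 1 was 5 bases from the pooled one and that of replicate 2 was 130 bases from it. Next came a pair of overlapping regions near an intron and exon border, at ranks 2399 and 6683, which met the same replicate regions (8.94, rank 2435 in replicate 1 and 4.07, rank 10143 in replicate 2). A coding exon region 606 bases past a start ranked 10517 and had an overlap in replicate 2 alone, at rank 6231, and the last pooled region ranked 25995.

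**Figure D2:**
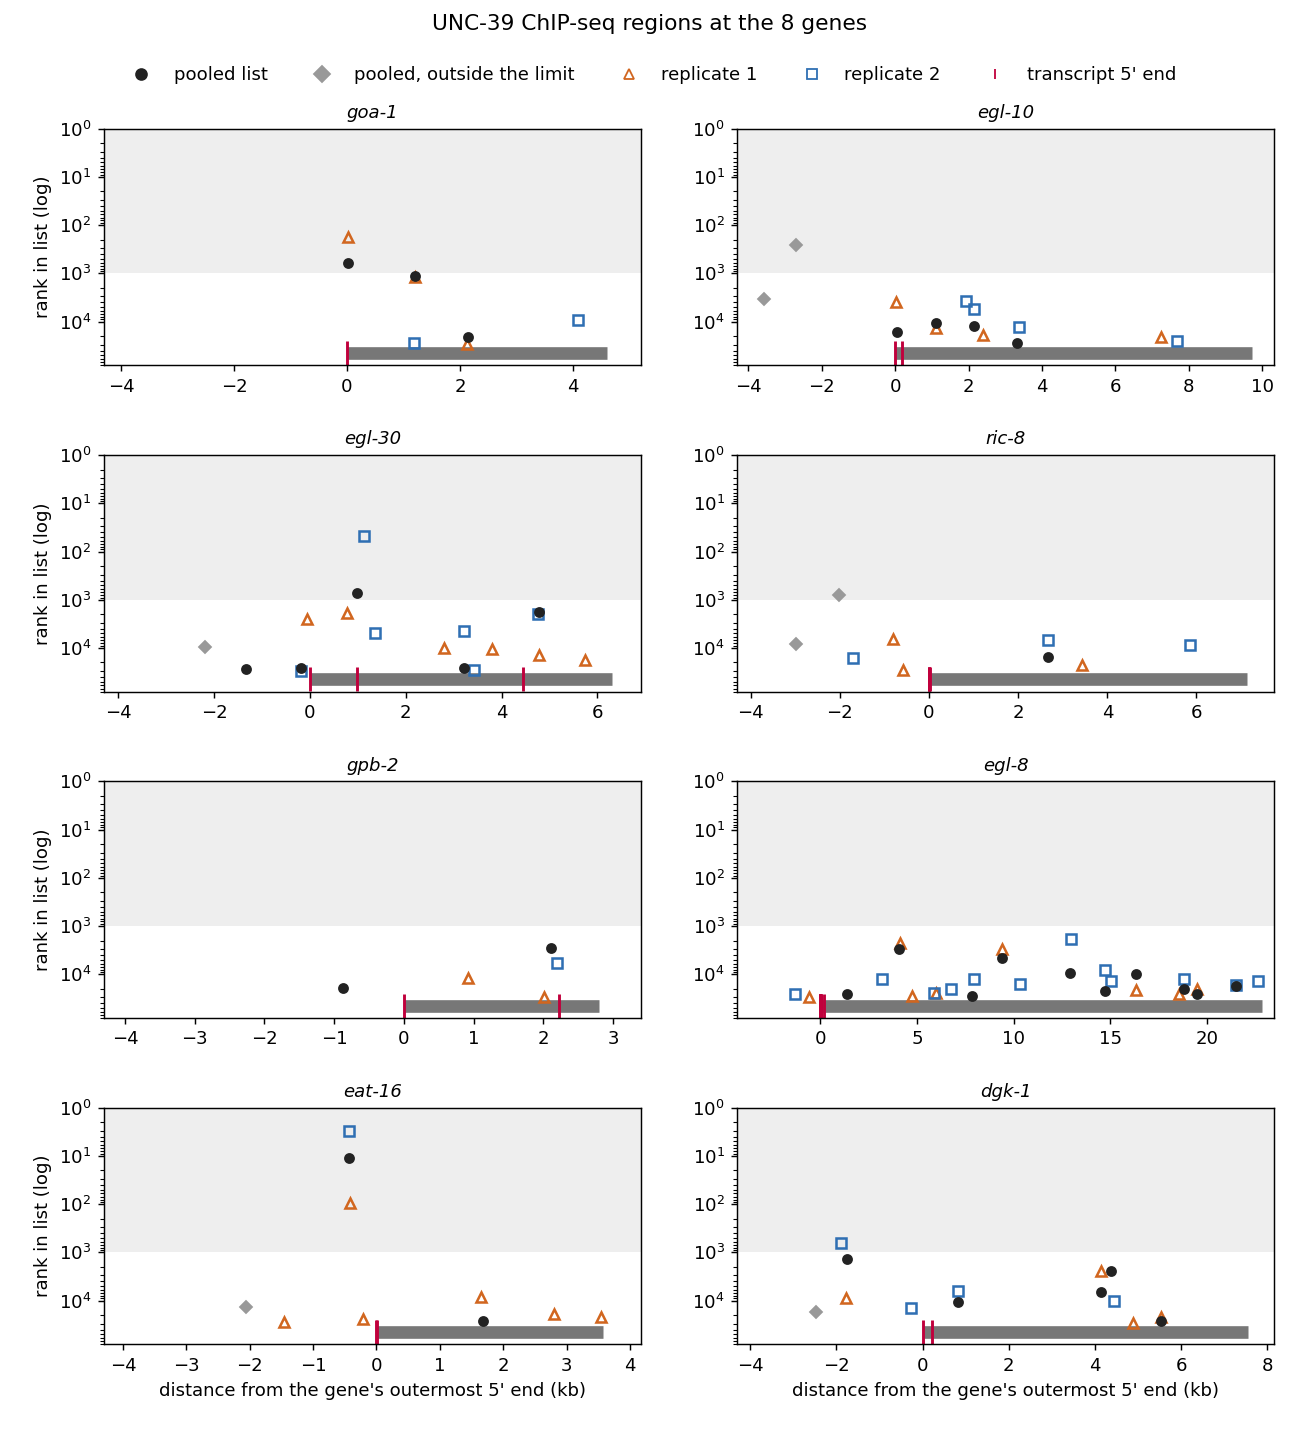
Rank within each list (y axis, log scale, strongest at the top, ranks up to 1000 shaded) against distance from the outermost 5′ end of each gene (x axis, kb, upstream negative), for pooled regions (filled circles), replicate 1 (triangles), replicate 2 (squares) and pooled regions upstream of the 2000-base limit (grey diamonds); bars are gene bodies and ticks transcript 5′ ends. eat-16 has all 3 lists near its start at ranks of 96 or better, goa-1 has no square near its start, and the grey diamond at rank 260 lies upstream of egl-10.

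The share of regions met in both replicates was close to that of the whole list. Of the 32 pooled regions, 11 (34.4%) were overlapped by at least 1 base in both replicates, against 30.7% of all pooled regions. Replicate 1 overlapped 21 (65.6%, against 68.2% of all) and replicate 2 overlapped 19 (59.4%, against 53.8%). Of the 32, 10 were met in replicate 1 alone, 8 in replicate 2 alone and 3 in neither, those 3 being an intron region of egl-8 and regions upstream of egl-30 and gpb-2. A region overlapped in both was present at 7 of the 8 genes, the exception being ric-8, against 35.0% of all protein-coding genes and 50.8% of those with windows as long. Without eat-16, which was chosen for a peak thresholded on repeatability between replicates, it was 6 of 7. Both counts rest on 1 shared base. The only such region of egl-8 shared 131 bases with replicate 1, and that of egl-10 shared 156. Neither of these regions meets the alternative of 200 shared bases given below. Overlaps of ranks 1 to 2000 in both replicates, a limit chosen after the ranks were seen, were present at eat-16 and at egl-30, 2 of 8, against 1.07% of all protein-coding genes and 1.8% of those with windows as long. The eat-16 peak chose the set, and without it the count was 1 of 7, that of egl-30. Its rank of 1865 in replicate 1 lay just inside the limit, so these counts are a description only. The pooled egl-30 region shared 192 bases with the region of replicate 1. The replicate summits lay 210 and 142 bases from the pooled one, on opposite sides. This egl-30 region therefore meets neither the alternative of 200 shared bases nor that of summits within 100 bases, both given below. Of the 1000 strongest pooled regions, 853 (85.3%) were overlapped in both, and 134, that of goa-1 among them, had no overlap in replicate 2.

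**Figure D3:**
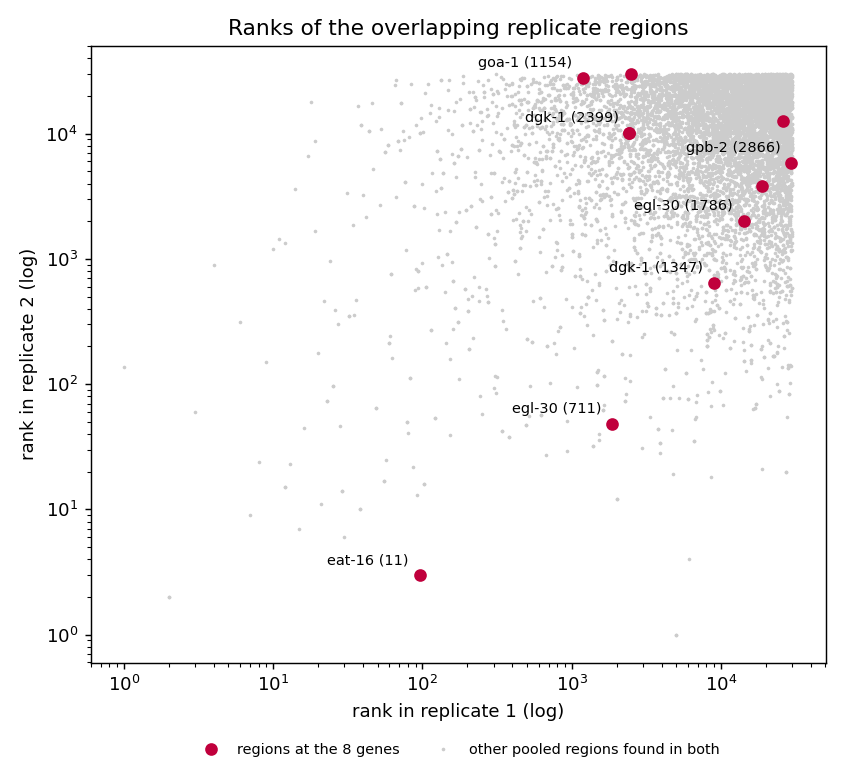
Rank of the overlapping region in replicate 1 (x axis, log scale) and in replicate 2 (y axis, log scale) for the 11 pooled regions at the 8 genes met in both replicates (large points, the stronger ones labelled with gene and pooled rank) and for all pooled regions met in both (grey). The overlapping pair of dgk-1 falls on 1 point, the eat-16 peak lies lowest (96 and 3), egl-30 at 1865 and 48, and each of the rest ranks 8930 or weaker in at least 1 replicate.

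By position, 14 of the 32 summits (43.8%) lay in an intron of their gene, among them the second regions of goa-1 and egl-30, and 10 (31.2%) in a coding exon, among them the strongest of egl-8. The 5′ UTR held 3 (9.38%), those of goa-1, egl-30 and egl-10, and 5 (15.6%) lay outside the gene, those of eat-16 and dgk-1 among them. Over all 34922 gene and region pairs under the same rule, introns held 28.8%, coding exons 21.4%, the 5′ UTR 1.62% and outside positions 44.4%. These shares move with gene length, since a long gene has more of its window inside, and they describe no preference.

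Within 100 bases of the summits, TGATAC or TGACAC stood in 8 of 32 regions (25.0%), against 14.4% of all pooled regions. Among the 8 were the eat-16 peak, with a TGACAC centred 64.5 bases from its summit, and the weak exon region of eat-16, with one at 1.5 bases, and the 7 besides the peak ranked 9491 or weaker, as did 21 of all 32 regions. The words stood in neither the goa-1 and egl-30 regions of rank up to 1000 nor any region of dgk-1. In the replicates' own regions the shares were close to those of all regions, with the words in 5 of 36 (13.9%, against 14.1% of all) in replicate 1 and in 4 of 33 (12.1%, against 14.2%) in replicate 2. The 3 further words were taken up because earlier work on these data found them frequent in optimal peaks, to which the eat-16 peak belongs. ACACAC stood in 3 regions (9.38%, against 8.04% of all), with 4 occurrences each in the eat-16 peak and in the egl-30 region of rank 711, overlapping ones counted. GAGAGA stood in 5 (15.6%, against 13.1%) and CGTCTC in 4 (12.5%, against 6.79%), both of them in the same eat-16 and egl-30 regions as well. The strongest 5 regions had a G+C content of 56.2% (eat-16), 42.3% (goa-1), 53.7% (egl-30), 42.8% (goa-1) and 55.7% (dgk-1), against a median of 42.0% over the 32 regions and 35.8% over the pooled list. That of eat-16 was the highest of the 32.

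Other genes of the pathway were taken from 6 lists of 81 genes, all matched in the annotation. None had an optimal peak, against 0.401% of all protein-coding genes. A pooled region was present at 74 of 81 (91.4%), against 77.6% of all protein-coding genes. Of genes with windows as long as those of the 8, 90.8% had one. A region of rank 1 to 1000 was present at 10 (12.3%), to be read against the 5.38% of all protein-coding genes. The 90.8% and the 8.78% given above are for windows as long as those of the 8, to which these 81 genes were not matched. Counting only genes with the nearest start left 7, for which no share over all genes was computed. The 5 strongest were at unc-10, the RIM protein of synaptic active zones (rank 117, signal value 21.6), pde-4, a cAMP phosphodiesterase (rank 139, 20.7), arr-1, the arrestin (rank 188, 19.2), gpb-1, the main G beta subunit (rank 220, 18.7), and gpa-17, a G alpha subunit (rank 289, 17.8). Their support differed: arr-1 ranked 36 in replicate 1 and 471 in replicate 2, and unc-10 ranked 202 and 482 in the same order. pde-4 ranked 131 in replicate 1 and 6241 in replicate 2, gpb-1 142 and 2356, and gpa-17 200 and 6516. By list, other G protein subunits had 4 of 22 genes with such a region, other RGS genes and regulators 2 of 15, lipid signalling 1 of 14, vesicle release 1 of 8, Gs and cAMP 2 of 7, and receptors 0 of 15. In the receptor list, where none reached rank 1000, 14 of 15 genes had some pooled region, against the same 77.6% of all protein-coding genes.

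**Figure D4:**
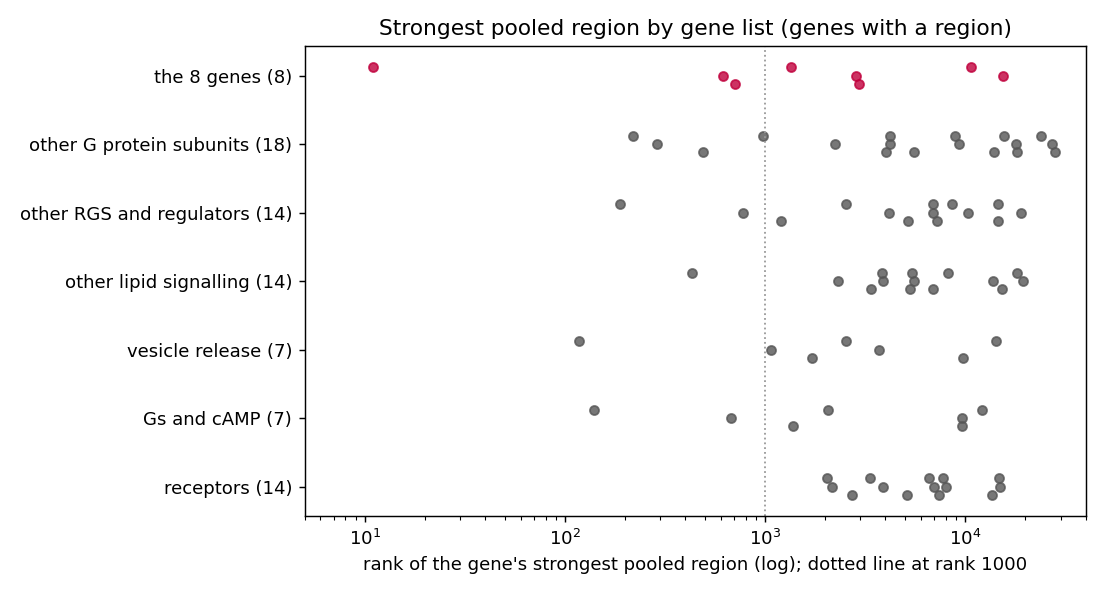
Rank of the strongest pooled region (x axis, log scale) of each gene with a region, for the 8 genes (top row) and 6 lists of other pathway genes (number of genes with a region in brackets), with a dotted line at rank 1000. eat-16 at rank 11 is the leftmost point, unc-10 at rank 117 the next, and no receptor gene lies left of the line.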

How the data were processed

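The data were lists of ChIP-seq regions for 2 replicates, a pool of both and an optimal list, on ce10 and ce11. Per the deposited notes, each relaxed list was derived from alignments and a further file that the notes also tie to control-normalised signal, and the optimal list from the pooled and replicate lists by IDR (irreproducible discovery rate). No source used here names the aligner, the peak caller, the thresholds or the depth. Each signal value is a score deposited by the authors on an unstated scale, and the −log10 q is likewise as deposited. They served to rank regions inside 1 list at a time.

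From the ce11 lists, summits were assigned to genes of Ensembl release 115 (WBcel235) by the window rule, every gene being treated alike. The lists on ce10 were never annotated. Replicate support required 1 shared base. Words were sought on either strand up to 100 bases from a summit. Assignment, overlap and word search were checked on planted positions. The members and gene lists were chosen with earlier results of these data known. Genes named were the 8 members, list genes with an optimal peak or among the 5 strongest of rank up to 1000, neighbours sharing a strong region and the 3 genes most like eat-16. C53H9.4, rpl-27, M01D7.10, F52A8.1, C09E10.3, F28C1.3 and mdf-2 serve to place regions. A further list is not reported here. No test was run, since there is 1 group. Alternatives changed distances, lists, rank limits, overlap rules and word windows. Scripts ran in Python 3.11.15 with pandas 2.3.3, numpy 2.4.6 and matplotlib 3.10.9.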

Additional observations from a re-analysis of the deposited data

How the results depend on the processing

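Of 40 alternative values, 25 stayed within 1.5 times the reported one, among them the rank of eat-16 on ce10 and the count of genes with any pooled region, which was 8 in every setting but that without gene bodies (7, ric-8 dropping out). The 3 genes with a region of rank 1 to 1000 became 5 with 5000 bases from a start, where the regions upstream of egl-10 and ric-8 are counted, and 1 and 6 with rank limits of 500 and 5000. The 32 regions became 17 without gene bodies, by construction. The 10 other pathway genes became 32 with a rank limit of 5000. The 11 regions overlapped in both replicates became 6 with 200 shared bases, 3 with summits within 100 bases and 2 with ranks up to 5000 in each replicate. For these changed counts the shares over all genes or all pooled regions were not computed, so they do not set the genes apart. The rank of eat-16 was 3 to 96 leaving out a replicate, and 1 by −log10 q, where 44 regions tie. The 8 regions with TGATAC or TGACAC became 2 within 50 bases (6.25%, against 7.28% of all pooled regions), 14 within 200 (43.8%, against 26.5%), and 4 to 5 leaving out a replicate. The −log10 q ranking, the word counts by replicate and the counting of overlapping regions once (31) were chosen after seeing the data. Ranking by the p-value column was not run, as the column holds no values. Since depth is unknown, sites weaker than those listed cannot be bounded. No paired analysis was possible because there is 1 group and no test.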

Other observations

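The replicates held regions at these genes that the pooled list did not. Of the 36 regions of replicate 1, 15 overlapped no pooled region, and of the 33 of replicate 2, 10 did not. The same share over all regions of each replicate was not computed, so these counts do not set the genes apart. In replicate 1 the strongest of these was at ric-8, 816 bases upstream of its start, with a signal value of 7.03 (rank 6640), followed by egl-30 intron regions at ranks 9838 and 10747 and a coding exon region of gpb-2 at rank 12104. In replicate 2 they were led by a coding exon region of ric-8 (4.28, rank 8818) and the 3′ UTR region of goa-1 (4.17, rank 9447), and 6 lay at egl-8. ric-8 had 3 regions in each replicate and 1 in the pool, and no region of replicate 1 shared a base with one of replicate 2 there.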
